A study of Homo sapiens with 8 samples.

Results

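The transcripts described here code for the subunits of the oxidative phosphorylation machinery: the nuclear genes of complexes I to IV and of ATP synthase, and ND6, a complex I subunit that is encoded in mitochondrial DNA. Members were taken by gene symbol in the platform annotation, and assembly factors, pseudogenes and probe sets with several symbols were left out. This gave 157 of 54675 probe sets, and these name 82 of the 19775 genes that have a probe set of their own. Of these genes 78 were nuclear subunit genes, 1 was ND6 and 3 were RNAs named after a neighbouring subunit gene (NDUFB2-AS1, NDUFV1-DT and NDUFV2-AS1). The 78 include, by its symbol, ATP5IF1, which codes for the ATP synthase inhibitor and not for a subunit. Probe sets with a log2 value of 6 or more on any array counted as expressed. These were 112 probe sets of 73 genes, namely 71 nuclear subunit genes, ND6 and NDUFV1-DT.

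RNA of HT1080, a fibrosarcoma line of human origin, was hybridized to GeneChip arrays, on which a transcript is read by sets of short oligonucleotides. A single array was made for each of 8 conditions, all at 18 h. Cells in 10 mM 2-deoxy-D-glucose (2DG), a glucose analogue that blocks glycolysis, received 10 µM compound C, 10 µM versipelostatin, 100 µM phenformin or no compound, and cells without 2DG received the same compounds at the same doses or nothing (control). The compounds went in immediately ahead of 2DG. Compound C is a kinase inhibitor known for its action on AMPK, versipelostatin is a macrocyclic microbial product and phenformin is a biguanide that inhibits complex I. The doses were not matched in mass or effect between compounds, so that values of different compounds are given side by side and not compared.

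Oxidative phosphorylation passes electrons, through complexes I to IV of the inner mitochondrial membrane, to oxygen, and ATP synthase uses the resulting proton gradient to make ATP. Most of the subunits are coded in the nucleus and imported, while a small set, ND6 among them, is coded by mitochondrial DNA, which is transcribed from both strands. ND6 is the protein gene of the light strand, and its mRNA is known to carry little or no poly(A) tail, whereas the other mitochondrial mRNAs are polyadenylated. In cells that lack glucose, or in which glycolysis is blocked, oxidative phosphorylation is the main remaining source of ATP.

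All values are RMA log2 levels as deposited, and a difference is the level on a treated array minus the level on its reference array, so that 1 is 2-fold. Where several probe sets read a gene, the one with the highest mean stands for it and is called its main probe set. With 1 array per condition there is no error and no replicate check, and no p-value is given. The 4 comparisons with control share 1 control array and the 3 comparisons in 2DG share 1 2DG array, which is also the treated array in 2DG against control. The median level of expressed probe sets was 7.01 to 7.35 on the 8 arrays. Poly-A spike-in transcripts serve as a check on labelling, and their median was above that of the 2DG array by 1.04 (log2) in 2DG + compound C, 0.60 in 2DG + versipelostatin and 0.44 in 2DG + phenformin. Against the control array it was higher by 0.33 (2DG), 0.12 (compound C), 0.01 (versipelostatin) and 0.30 (phenformin). Scaling on the poly-A controls lowers every difference by that amount, and their part in the results was not tested. The hybridization controls, not used for scaling, also stood above the control array. Their median difference was 0.75 in 2DG + compound C, 0.53 in 2DG + versipelostatin, 0.58 in 2DG + phenformin and 0.21 in 2DG. How much of the poly-A differences they share was not tested. The mesenchymal marker VIM was at 13.24 to 13.65 on all arrays, FN1 at 6.66 to 10.70 and COL6A1 at 6.32 to 8.24. COL1A1 (5.88 to 6.50) and MMP2 (5.90 to 6.72) lay near the expression limit. Of the epithelial markers EPCAM and CDH1 were not expressed, but KRT8 was, at 8.03 to 8.82. The hematopoietic marker PTPRC was not expressed.

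Promoter sequences of the nuclear members were looked up because many of these genes are known to be controlled by the same factors, NRF1, GABPA (which binds the ETS motif) and YY1, and the element bound by ATF4, a stress-response factor, was searched beside them. Of 72 expressed subunit genes, ND6 included, 62 had an entry in the RefSeq promoter table (GRCh38.p14; 250 bases before to 50 after the start). The NRF1 motif GCGCATGC was in the promoters of 13 of the 62 genes (21.0%) and of 3.68% of 27305 genes in the table. The GABPA motif CCGGAAGT was in 11 (17.7%, against 4.95% of all), the YY1 motif AAGATGGCG in 8 (12.9%, against 2.14%), and the ATF4 composite element TGATGCAAT in 0 (against 0.293%). In all, 26 of the 62 held at least 1 of the first 3 motifs, so that lacking them was the commoner case. Of the genes with an entry and a range of 1 or more over the 8 arrays, NDUFA5 has the NRF1 motif. NDUFB1, ATP5MC1, UQCRC2, SDHA and NDUFV2 have none of the 4. Both strands were searched for every motif, none of the 4 is contained in another, and a match is a description of the sequence, not evidence of binding. The 100 bases before the start are shown for 5 members with a motif (NRF1 in NDUFS7, ATP5F1C and ATP5ME, GABPA in COX5B and SDHD; capitals mark the motif on either strand, which in ATP5F1C are overlapping matches on both) and for 3 members whose levels stood apart (NDUFV2, SDHA and UQCRC2), in which none of the 4 motifs was found:
NDUFS7, chr19:1383807-1383906 (plus strand): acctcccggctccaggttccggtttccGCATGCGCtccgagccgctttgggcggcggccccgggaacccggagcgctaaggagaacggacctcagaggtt
ATP5F1C, chr10:7788077-7788176 (plus strand): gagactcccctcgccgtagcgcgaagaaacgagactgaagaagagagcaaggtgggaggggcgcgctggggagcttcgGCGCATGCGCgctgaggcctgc
ATP5ME, chr4:674277-674376 (minus strand): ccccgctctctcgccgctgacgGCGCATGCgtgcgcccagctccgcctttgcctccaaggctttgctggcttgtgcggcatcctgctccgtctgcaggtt
COX5B, chr2:97645962-97646061 (plus strand): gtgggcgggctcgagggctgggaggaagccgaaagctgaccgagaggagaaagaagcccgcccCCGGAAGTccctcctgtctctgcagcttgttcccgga
SDHD, chr11:112086773-112086872 (plus strand): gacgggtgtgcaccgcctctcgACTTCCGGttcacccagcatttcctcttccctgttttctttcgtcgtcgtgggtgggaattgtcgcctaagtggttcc
NDUFV2, chr18:9102599-9102698 (plus strand): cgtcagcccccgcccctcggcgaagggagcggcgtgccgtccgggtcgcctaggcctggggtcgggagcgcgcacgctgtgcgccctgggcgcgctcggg
SDHA, chr5:218220-218319 (plus strand): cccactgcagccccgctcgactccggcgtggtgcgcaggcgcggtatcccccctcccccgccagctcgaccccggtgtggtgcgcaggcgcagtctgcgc
UQCRC2, chr16:21953261-21953360 (plus strand): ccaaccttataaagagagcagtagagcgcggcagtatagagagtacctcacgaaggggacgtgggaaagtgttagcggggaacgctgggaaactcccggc

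ND6 was the member with the largest spread. Its level was 7.79 in 2DG + compound C, 7.99 in 2DG + versipelostatin, 6.59 in 2DG + phenformin, 6.32 in 2DG, 7.07 with compound C, 5.78 with versipelostatin, 5.57 with phenformin and 9.16 in control. The control array stood above the other 7, with 2DG + versipelostatin next and phenformin at the bottom. The range over 8 arrays was 3.59, which is place 384 from the top among 8429 expressed genes. Since there is no spread within a condition, it cannot be said which neighbours in this order differ.

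The log2 difference of ND6 from control was −2.84 in 2DG (7.15-fold lower), −2.09 with compound C (4.25-fold lower), −3.38 with versipelostatin (10.4-fold lower) and −3.59 with phenformin (12.0-fold lower). With 2DG, versipelostatin or phenformin alone it was the lowest of all 8429 expressed genes by difference from control. All 4 differences rest on the 1 control array and on 1 probe set (1553575_at), which was under the limit of 6 with versipelostatin and phenformin. How the short or missing poly(A) tail of ND6 affects these values was not tested. Added to 2DG, compound C gave an ND6 level higher by 1.47 (2.77-fold) than 2DG, versipelostatin one higher by 1.67 (3.17-fold) and phenformin one higher by 0.27. With poly-A scaling these 3 differences were 0.43, 1.06 and −0.16, so that the sign turned for phenformin and the difference fell under 2-fold for compound C.

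The other mitochondrially encoded transcripts on the array did not share the position of ND6 relative to control. In 2DG the 6 genes read, COX1, COX2, COX3, ND2, ND4 and ATP6, were all above control, by 0.32 (COX2) to 0.69 (COX1) with a median of 0.54 where ND6 gave −2.84. With compound C all 6 were above control, by 0.06 to 0.41, whereas ND6 gave −2.09. With versipelostatin 3 of the 6 were above control and with phenformin 5 of 6, the lowest in both being ND2 (−0.36 and −0.04). With poly-A scaling 5 of 6 (2DG), 4 (compound C), 3 (versipelostatin) and 1 (phenformin) were above control, so that the signs of the small differences depend on it. COX1, the catalytic subunit of complex IV, was at 12.46 in 2DG + compound C, 12.68 in 2DG + versipelostatin, 11.48 in 2DG + phenformin and 11.69 in 2DG. Its difference from 2DG was 0.77 with compound C and 0.99 with versipelostatin, which poly-A scaling changes to −0.27 and 0.39. ND2, a membrane subunit of complex I, was at 11.46 in 2DG + phenformin and 12.63 in 2DG, a difference of −1.17, and no other main probe set of the 6 was past 2-fold in any comparison. The second probe set of ND4 (224372_at), nearly as bright as the main one, was at 12.65 in 2DG and 11.60 in control, a difference of 1.05, where the main one gave 0.65.

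**Figure D1:**
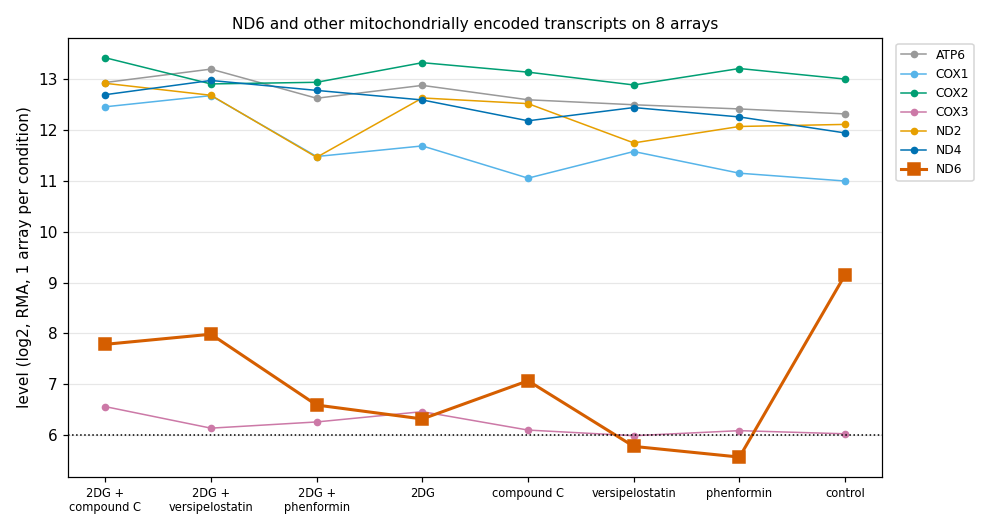
Levels (log2) of ND6 (squares) and of 6 other mitochondrially encoded genes (circles, main probe sets) on the 8 arrays, 1 per condition; lines only join the points of a gene, and the dotted line is the expression limit of 6. ND6 is highest in control, at 9.16, and lowest with phenformin, at 5.57, while the other genes span less than 2 log2 units each.

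The probe sets of the nuclear subunit genes were bright and even. Brightness depends on the probes as well as on the mRNA. Their median level was 10.74 to 11.14 over the 8 arrays, against 7.33 to 7.69 for all expressed genes, and the means of the 71 genes ran between 8.16 and 12.65. The range over 8 arrays was under 1 for 64 of 71 (90.1%), against 2711 of 8429 expressed genes (32.2%) and 582 of 838 other genes with a mean of 10 or more (69.5%). The smallest ranges were those of COX4I1 (0.16), the large regulatory subunit of complex IV, NDUFC1 (0.21), COX5A (0.21) and ATP5MK (0.23). COX4I1, for example, was at 12.14 in 2DG + compound C, 12.02 in 2DG + versipelostatin, 11.97 in 2DG + phenformin, 12.05 in 2DG, 12.09 with compound C, 12.09 with versipelostatin, 12.07 with phenformin and 12.03 in control. The 7 genes with a range of 1 or more were NDUFB1, SDHC, NDUFA5, ATP5MC1, UQCRC2, SDHA and NDUFV2.

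Counts past 2-fold were accordingly small. In 2DG against control none of the 71 nuclear genes was at least 2-fold higher or lower, where 3.06% of all expressed genes were higher and 1.9% lower. With compound C none was higher (3.88% of all) and 1 lower (2.7%), with versipelostatin none higher (2.46%) and 1 lower (2.48%), and with phenformin none higher (2.66%) and none lower (2.17%). In 2DG + compound C 0 of 71 were higher and 2 lower than in 2DG, against 8.33% and 25.4% of all expressed genes. In 2DG + versipelostatin none was higher (4.09%) or lower (20.0%), and in 2DG + phenformin none was higher (4.84%) or lower (21.8%). Bright probe sets as a whole moved less than the rest. Of the 838 other genes with a mean of 10 or more, 3.34% were higher and 7.52% lower in 2DG + compound C. The shares were 3.46% and 3.70% in 2DG + versipelostatin, and 4.18% and 3.70% in 2DG + phenformin. Against control they were 2.03% and 1.43% in 2DG, and 1.55% and 1.43% with compound C. With versipelostatin they were 1.91% and 0.597%, and with phenformin 1.67% and 0.955%. The 1 nuclear gene lower with compound C and with versipelostatin is 1.41% of 71, near or above the share of these bright genes. With poly-A scaling 19 of 71 (26.8%) were lower in 2DG + compound C, against 62.2% of all expressed genes and 54.7% of the 838. Several of the counts of none depend on the probe sets taken: without those that may match several transcripts (names ending in _s_at, _x_at or _a_at) 45 nuclear genes were left, of which 4 were higher in 2DG + versipelostatin, 2 higher in 2DG + compound C, 3 lower in 2DG and 2 lower with phenformin. Among them were ATP5IF1 (223339_at), NDUFA6 (202000_at), UQCR11 (223613_at) and COX5A (229426_at). Their probe sets reached the limit of 6 on 3, 6, 4 and 3 arrays. These 4 thus counted as expressed only through the arrays where they were high. That does not hold for ATP5MG (208745_at) and UQCRB (209065_at), which reached the limit on all 8 arrays. ATP5MG was higher by 1.27 in 2DG + versipelostatin and UQCRB by 1.11 in 2DG + compound C. No share of all expressed genes under this omission is given here.

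The median difference of the 71 nuclear genes from 2DG was 0.26 (compound C), 0.24 (versipelostatin) and 0.09 (phenformin), where the medians of all expressed genes were −0.23, −0.18 and −0.26. Above 2DG were 54, 59 and 42 of the 71, against 3343, 3335 and 3030 of the 8429. With poly-A scaling the medians of the nuclear genes were −0.77, −0.36 and −0.35, so that the sign turned in all 3, while the distance from all expressed genes is the same under any such shift. That distance is smaller among bright genes: the 54 nuclear genes with a mean of 10 or more had medians of 0.27, 0.21 and 0.10, and the 838 other genes of that brightness 0.00, 0.07 and 0.01. Against control the medians were −0.11 (2DG), −0.06 (compound C), −0.15 (versipelostatin) and 0.06 (phenformin), beside 0.01, 0.04, −0.02 and −0.03 for all expressed genes; the last turned to −0.24 with poly-A scaling. Below control were 51 of 71 (2DG), 41 (compound C), 47 (versipelostatin) and 28 (phenformin), against 4075, 3933, 4375 and 4428 of the 8429. The count of 28 rests on the values without poly-A scaling, which turns the sign of that median.

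**Figure D2:**
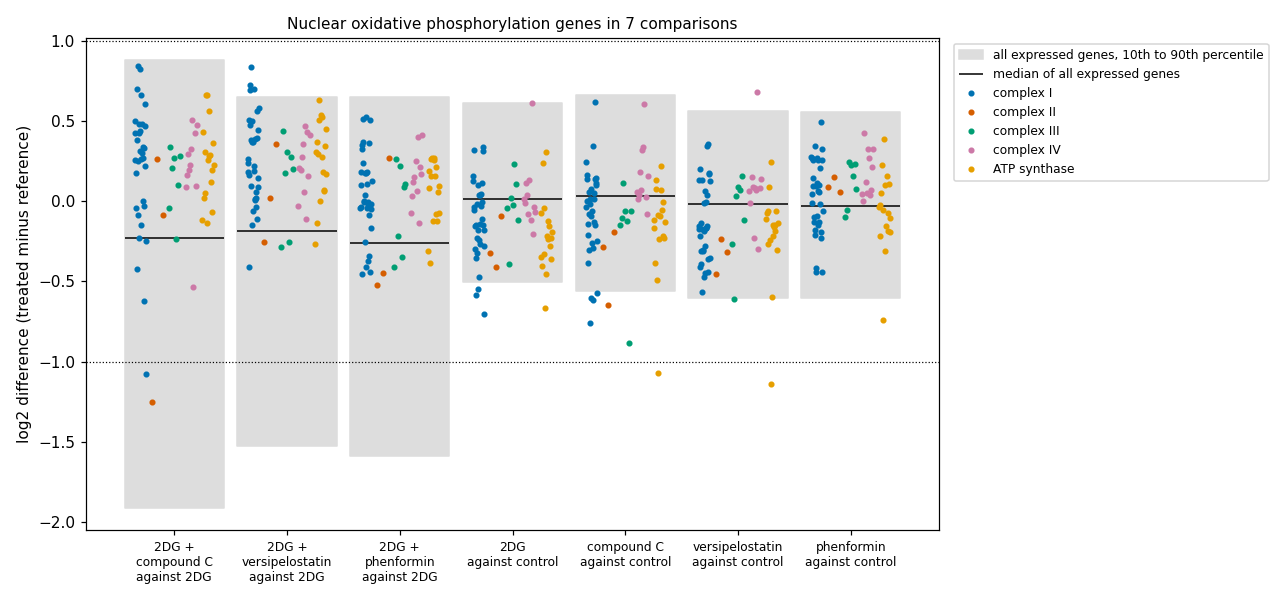
Log2 differences of the 71 nuclear subunit genes (dots, coloured by complex) in 7 comparisons, 1 array against 1 array, with the 10th to 90th percentile (grey) and the median (line) of 8429 expressed genes; dotted lines mark 2-fold. The dots stay within 2-fold but for ATP5MC1 (compound C and versipelostatin) and for SDHA and NDUFV2 (2DG + compound C).

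Complex I takes electrons from NADH and is the largest of the complexes. Its 33 expressed nuclear genes had a median difference from 2DG of 0.30 in 2DG + compound C, 0.24 in 2DG + versipelostatin and 0.00 in 2DG + phenformin, and from control of −0.14 (2DG), −0.03 (compound C), −0.17 (versipelostatin) and 0.06 (phenformin). NDUFV2, a core subunit that holds an iron-sulphur cluster, was at 8.47 in 2DG + compound C, 9.99 in 2DG + versipelostatin, 9.38 in 2DG + phenformin, 9.55 in 2DG, 10.00 with compound C, 9.90 with versipelostatin, 9.81 with phenformin and 10.25 in control. It was lowest in 2DG + compound C, with a difference of −1.08 from 2DG (2.11-fold lower). The other core subunits did not follow it as a set. NDUFS1, the largest core subunit, was at 8.41 in 2DG + compound C and 9.03 in 2DG, a difference of −0.62. Its dimmer expressed probe sets differed less between these arrays, at 6.53 and 6.66 (229647_at) and at 5.58 and 5.96 (236356_at). NDUFV1, which binds NADH and FMN, was at 10.36 in 2DG + compound C and 9.75 in 2DG, a difference of 0.61.

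Among the 28 accessory subunits, which surround the core, none was past 2-fold. NDUFA7 had the highest difference in 2DG + compound C and in 2DG + versipelostatin, 0.85 and 0.84, with levels of 8.77 in 2DG + compound C, 8.77 in 2DG + versipelostatin, 8.44 in 2DG + phenformin and 7.93 in 2DG. NDUFS4 was above control in all 4 comparisons, by 0.34 (2DG), 0.62 (compound C), 0.36 (versipelostatin) and 0.49 (phenformin), and its control level of 9.45 was the lowest of the 8 arrays. NDUFB1 had the lowest difference with compound C, −0.76, and NDUFA8 the lowest with versipelostatin, −0.56. NDUFA13 was the lowest in 2DG + versipelostatin and in 2DG + phenformin, at −0.41 and −0.45 from 2DG.

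Complex II, succinate dehydrogenase, links the TCA cycle to the respiratory chain and is coded wholly in the nucleus. SDHA, its flavoprotein, was at 7.08 in 2DG + compound C, 8.08 in 2DG + versipelostatin, 7.81 in 2DG + phenformin, 8.33 in 2DG, 8.37 with compound C, 8.20 with versipelostatin, 8.75 with phenformin and 8.65 in control. The lowest was 2DG + compound C, with a difference of −1.25 from 2DG (2.38-fold lower). The probe set may also read transcripts of near-identical copies (SDHAP1, SDHAP2 and SDHAP4 share another probe set with SDHA in the annotation), so the value is uncertain. SDHC and SDHD, the membrane anchors, differed from 2DG by 0.26 and −0.08 in 2DG + compound C. SDHB was not among the probe sets with a single symbol.

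Complex III passes electrons to cytochrome c. UQCRC2, a core protein, was at 10.10 in 2DG + compound C, 10.28 in 2DG + versipelostatin, 10.09 in 2DG + phenformin, 10.00 in 2DG, 9.01 with compound C, 10.06 with versipelostatin, 10.13 with phenformin and 9.89 in control. The compound C array was the only low one, with a difference of −0.89 from control, and the same compound in 2DG gave 0.10 above 2DG. UQCRC1, the other core protein, gave −0.12 from control with compound C. CYC1, cytochrome c1, differed from 2DG by −0.04, −0.29 and −0.41 when compound C, versipelostatin or phenformin was present.

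Complex IV reduces oxygen. Its 11 expressed genes had a median absolute difference from control of 0.08 (2DG), 0.08 (compound C), 0.09 (versipelostatin) and 0.12 (phenformin), the smallest of the 5 groups of subunits except with phenformin, where the 3 genes of complex II had 0.09. COX7A2L, which takes part in joining complexes III and IV into supercomplexes, was the exception. It was at 9.86 in 2DG + compound C, 10.29 in 2DG + versipelostatin, 10.26 in 2DG + phenformin, 10.40 in 2DG, 10.40 with compound C, 10.47 with versipelostatin, 9.83 with phenformin and 9.79 in control. The arrays of 2DG + compound C, phenformin and control were low, and 2DG, compound C and versipelostatin alone were above control by 0.61, 0.61 and 0.68. The isoforms bound to particular tissues, COX4I2, COX6A2, COX6B2, COX7A1 and COX8C, were not expressed, the highest of them reaching 4.25 (COX4I2), while the widely expressed forms COX4I1, COX6A1, COX6B1, COX7A2 and COX8A had levels between 10.69 and 12.56.

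ATP synthase makes ATP. ATP5IF1, the gene of its inhibitor, is counted with its subunits by symbol. Of the 17 expressed genes 15 were below control in 2DG, with a median of −0.23. With versipelostatin 15 were below control, with a median of −0.15. ATP5MC1, 1 of 3 genes for the same c-ring protein of the rotor, was at 10.72 in 2DG + compound C, 10.56 in 2DG + versipelostatin, 10.32 in 2DG + phenformin, 10.05 in 2DG, 9.65 with compound C, 9.58 with versipelostatin, 9.98 with phenformin and 10.72 in control. Its difference from control was −0.67 in 2DG, −1.07 with compound C (2.10-fold lower), −1.14 with versipelostatin (2.20-fold lower) and −0.74 with phenformin. ATP5MC2, which codes for the same mature protein, did not share this: its differences from control were 0.31 (2DG), −0.09 (compound C), 0.24 (versipelostatin) and 0.39 (phenformin). ATP5MC3, the third gene, was below control in all 4, with differences between −0.60 and −0.23.

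**Figure D3:**
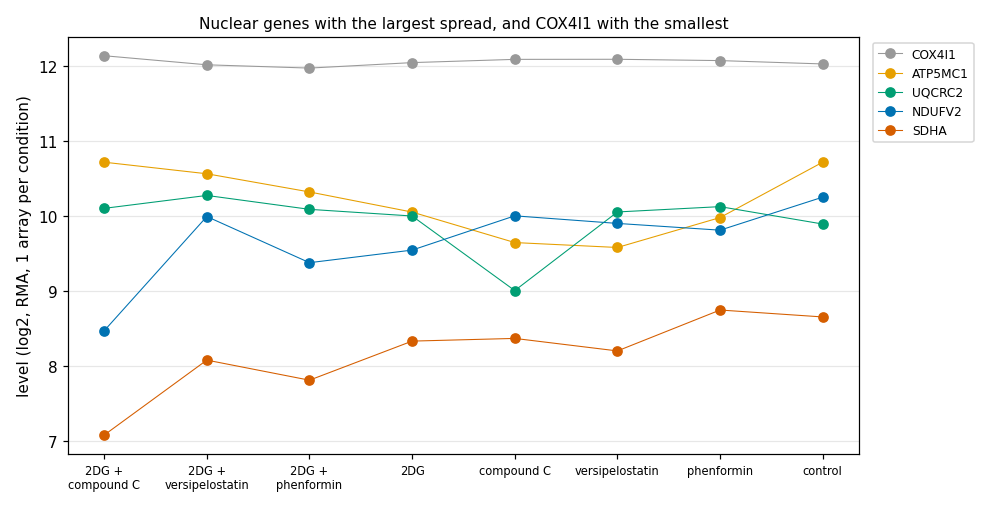
Levels (log2) on the 8 arrays, 1 per condition, of the 4 nuclear subunit genes with the largest ranges, ATP5MC1, UQCRC2, NDUFV2 and SDHA, and of COX4I1, which has the smallest; lines only join the points of a gene. NDUFV2 and SDHA are lowest in 2DG + compound C and UQCRC2 with compound C alone, whereas COX4I1 stays between 11.97 and 12.14.

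A second layer came from the dimmer probe sets of the same genes. There were 39 expressed probe sets beside the main ones, of 25 genes, and the median absolute gap between their difference and that of the main probe set was 0.15. It was 0.08 for the 16 with a mean of 9 or more and 0.48 for the 13 with a mean under 7. The limit of 6 was reached on all 8 arrays by 27 of the 39 and on 1 to 6 arrays by the other 12, which counted as expressed only through the arrays where they were high. The probe sets described next are among these 12, so that their being high on those arrays follows from the limit, and they are shown as a description. The largest gap was that of NDUFA10, an accessory subunit of complex I. Its probe set 1554719_at was at 6.57 in 2DG + compound C, 8.89 in 2DG + versipelostatin, 8.12 in 2DG + phenformin, 4.07 in 2DG, 4.71 with compound C, 4.02 with versipelostatin, 4.25 with phenformin and 3.92 in control. The 3 arrays with both 2DG and a compound stood above the other 5, by 2.50, 4.82 and 4.06 over 2DG, whereas the main probe set gave 0.50, 0.24 and 0.10.

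NDUFB8, another accessory subunit, had the same kind of split for versipelostatin and phenformin. Its probe set 214241_at was higher than in 2DG by 2.43 in 2DG + versipelostatin and by 2.18 in 2DG + phenformin, and the main probe set by 0.01 and −0.02. For NDUFB2 the probe set 240391_at was at 6.39 in 2DG + compound C and 2.98 in 2DG, and the 2DG value was not above background (it lay below the array's median), so the difference is at least 3.26. ATP5MC3 (228168_at) had a difference of −2.70 or lower from 2DG in 2DG + compound C, and NDUFV3 (226209_at) one of −2.09. Which transcripts these probe sets read was not tested.

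**Figure D4:**
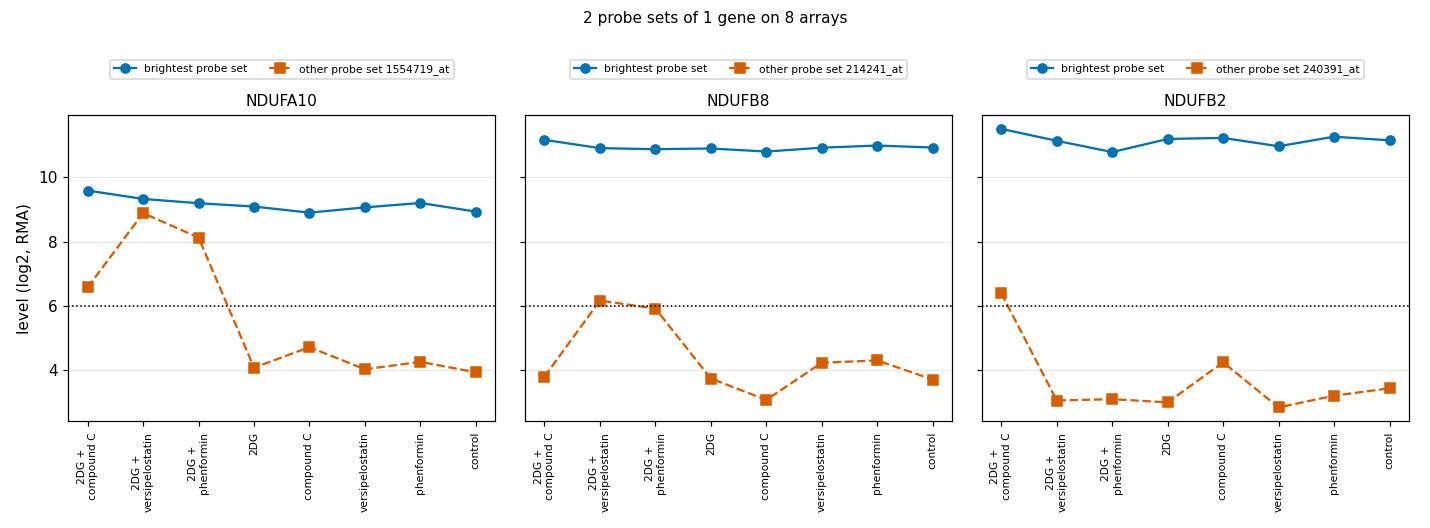
Levels (log2) of the main probe set (circles) and 1 other probe set (squares) of NDUFA10, NDUFB8 and NDUFB2 on the 8 arrays; lines only join points and the dotted line is the expression limit of 6. The other probe sets reach 6 only on arrays with 2DG and a compound (NDUFA10 at 8.89 with versipelostatin), which is how they came to be counted as expressed, and the main ones stay nearly level.

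Some subunit genes are read only by probe sets with several symbols and were left out of all counts. NDUFC2, an accessory subunit of complex I that shares its probe set 218101_s_at with the read-through transcript NDUFC2-KCTD14, was at 11.45 in 2DG + compound C, 9.93 in 2DG + versipelostatin, 9.98 in 2DG + phenformin and 11.01 in 2DG. The arrays of 2DG + versipelostatin and 2DG + phenformin differed from 2DG by −1.08 and −1.03. A dimmer probe set with the same symbols, 222521_x_at, went the other way, with differences of 0.56 and 0.20 at levels of 5.16 to 6.06 over the 8 arrays.

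Genes that serve these complexes were counted in the same way. Of 42 expressed assembly factors, which build the complexes without staying in them, 1 was at least 2-fold higher (2.38%) and 7 lower (16.7%) in 2DG + compound C than in 2DG, where 8.33% of all expressed genes were higher and 25.4% lower. PET117, a complex IV factor, was at 5.32 in 2DG + compound C and 8.09 in 2DG, a difference of −2.77. In 2DG + versipelostatin 0 factors were higher (against 4.09% of all) and 1 lower (2.38%, against 20.0%). In 2DG + phenformin 1 was higher (2.38%, against 4.84%) and 6 lower (14.3%, against 21.8%). In these comparisons with 2DG the shares of factors past 2-fold were below those of all expressed genes, but each rests on few of the 42. Against control the shares lower were 4.76% with compound C (2.7% of all), 2.38% with versipelostatin (2.48%) and 2.38% with phenformin (2.17%). In 2DG against control 0 were lower (1.9%). Genes of like brightness were not set beside the factors. Of 17 regulators of mitochondrial transcription and biogenesis, 4 were higher (23.5%, against 8.33% of all) and 4 lower (23.5%, against 25.4%) in 2DG + compound C. In 2DG + versipelostatin 1 was higher (5.88%, against 4.09%) and 7 lower (41.2%, against 20.0%), and in 2DG + phenformin 2 were higher (11.8%, against 4.84%) and 5 lower (29.4%, against 21.8%). With 17 genes each of these shares rests on few of them. TEFM, the elongation factor of mitochondrial transcription, was at 4.68 in 2DG + compound C, 6.35 in 2DG + versipelostatin, 6.08 in 2DG + phenformin and 8.47 in 2DG, with differences of −3.79, −2.12 and −2.39 from 2DG. In 2DG against control its difference was −0.25. GABPB1, the partner subunit of GABPA, was higher than in 2DG by 1.52, 1.59 and 2.30 in 2DG + compound C, versipelostatin and phenformin. NRF1 itself differed from 2DG by 1.59, −1.39 and −1.16 in the same order, at levels of 3.66 to 6.64 on these arrays. Of 75 mitochondrial ribosomal protein genes, 1 was higher (1.33%, against 8.33% of all) and 10 lower (13.3%, against 25.4%) in 2DG + compound C. In 2DG + versipelostatin 2 were higher (2.67%, against 4.09%) and 3 lower (4.0%, against 20.0%). In 2DG + phenformin 2 were higher (2.67%, against 4.84%) and 3 lower (4.0%, against 21.8%).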

How the data were processed

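Members and lists were chosen with earlier results of these data known. The authors deposited log2 intensities that, by the submitters' processing notes, come from RMA (background correction, normalization across arrays and one summary value per probe set); the RMA software is not given in the sources. Labelled cRNA came from 100 ng of total RNA. From the deposited log2 values, differences between 1 array and 1 array were taken in 7 comparisons. The 62 control probe sets were left out, and 41097 probe sets carried 1 symbol. Expressed meant log2 of 6 or more on at least 1 array. A value under its array's median without controls was not above background, and its difference is a bound. The number of arrays limits precision. Named genes were ND6, core subunits, members past 2-fold, the highest and lowest member of each complex in each comparison, tissue-restricted isoforms and up to 3 genes per related list; NDUFC2, NDUFV3 and the dimmer probe sets were named after their values were seen. Alternatives were other expression limits, fold thresholds, centring, quantile normalization, poly-A scaling on 24 probe sets, medians over probe sets and omitting probe sets with names ending in _s_at, _x_at or _a_at. The calculation was tested on simulated data. Python 3.11.15, numpy 2.4.6, pandas 2.3.3 and matplotlib 3.10.9 were used.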

Additional observations from a re-analysis of the deposited data

Results flagged for a closer look

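ND6 differed in sign between normal medium and 2DG: compound C gave −2.09 against control and 1.47 in 2DG against 2DG, and versipelostatin −3.38 and 1.67. For NDUFA6 (202000_at) versipelostatin gave −1.07 against control and 1.26 against 2DG, and for ATP5IF1 (223339_at), the gene of the ATP synthase inhibitor, compound C gave −2.64 and 1.45 and versipelostatin −1.31 and 1.11. The probe set 223339_at reached the expression limit on 3 arrays, control (6.23), 2DG + compound C (6.57) and 2DG + versipelostatin (6.22). These are the high sides of its differences. The probe set 202000_at reached it on 6, all but versipelostatin (5.86) and 2DG (5.82), which are the low sides of its differences. The change of sign of these probe sets thus lines up with the limit and is shown as a description. The main probe sets of NDUFA6 and ATP5IF1 were under 2-fold in these comparisons. With 1 array per condition these differences between media were not tested. Among probe sets that the counts do not use is 230077_at, annotated to SDHA and its copies SDHAP1, SDHAP2 and SDHAP4. It was above control by 2.00 in 2DG + versipelostatin and by 1.64 in 2DG + phenformin. Its levels were 6.84 and 6.47 on these arrays and 4.20 to 5.26 on the rest. It thus reached the limit of 6 only on the arrays where it was high, and is shown as a description.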

How the results depend on the processing

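Each condition has 1 array, so no setting adds an error. No paired analysis was possible because each condition has 1 array and no replicate numbers pair samples; a fit that adds 2DG and compound effects over the 8 arrays was not run. No value past 2-fold changed sign. Expression limits of 5 and 7 or none and quantile normalization left every count of nuclear genes within 1.5 times its value. These settings and medians over the probe sets of a gene, run for the medians only, shifted the medians by at most 0.12 (rounded), although quantile normalization turned that of 2DG + phenformin against 2DG just below zero. Scaled on the poly-A controls, the medians were −0.44 in 2DG and −0.24 with phenformin against control, and −0.77, −0.36 and −0.35 in 2DG + compound C, versipelostatin and phenformin against 2DG. The counts 2-fold lower were then 1 in 2DG, 2 with compound C, 1 with phenformin, 19 in 2DG + compound C and 1 in 2DG + versipelostatin. A second form of this scaling, on the median of the differences of single poly-A probe sets, was chosen after seeing the data. It gave medians of −0.47, −0.22, −0.60, −0.26 and −0.23 in the same comparisons, and 2 lower in 2DG, 1 with phenformin and 10 in 2DG + compound C. Centring gave medians of 0.48, 0.46 and 0.37 in 2DG + compound C, versipelostatin and phenformin, 2 higher and 1 lower with compound C and 1 higher with versipelostatin.

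Without probe sets that may match several transcripts, 45 nuclear genes were left, the median with phenformin against control was −0.02, and there were 3 lower in 2DG, 2 with versipelostatin and 2 with phenformin, and 2 higher in 2DG + compound C and 4 in 2DG + versipelostatin. Some of these calls came from dim probe sets that counted as expressed only through the arrays where they were high. Those of ATP5MG and UQCRB came from probe sets at the limit on all 8 arrays. At 1.5-fold the higher and lower counts were 1 and 2 in 2DG, 2 and 6 with compound C and 1 and 3 with versipelostatin. With phenformin 1 was lower, and 7 and 6 were higher in 2DG + compound C and versipelostatin. SDHA, NDUFV2 and NDUFS1, by their main probe sets, were lower in 2DG + compound C. Within 1.5-fold of control lay 88.7% to 98.6% of the 71 nuclear genes, against 77.9% to 81.9% of all expressed genes. For the 838 other genes with a mean of 10 or more the share was 86.9% to 89.4%. With compound C it was 88.2%, beside 88.7% of the nuclear genes. Within 1.5-fold of 2DG lay 85.9% (compound C), 91.5% (versipelostatin) and 100% (phenformin), against 46.4%, 56.01% and 53.1%. Of the 838 other genes with a mean of 10 or more, 74.1%, 79.8% and 80.5% did. At 3-fold 0 nuclear genes were lower with compound C, with versipelostatin and in 2DG + compound C.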

Other observations

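Of 21 expressed genes of mitochondrial protein import, 3 were at least 2-fold higher and 3 lower in 2DG + compound C than in 2DG (14.3% each, against 8.33% and 25.4% of all expressed genes). In 2DG + versipelostatin 0 were higher (against 4.09%) and 2 lower (9.52%, against 20.0%). In 2DG + phenformin 0 were higher (against 4.84%) and 1 lower (4.76%, against 21.8%). TIMM21, which joins the import channel to the respiratory chain, was at 6.99 in 2DG + compound C, 6.66 in 2DG + versipelostatin, 6.05 in 2DG + phenformin and 9.05 in 2DG, with differences of −2.07, −2.39 and −3.00 from 2DG. Of 13 mitochondrial chaperones and proteases, 5 were lower in 2DG + compound C (38.5%, against 25.4%), 1 in 2DG + versipelostatin (7.69%, against 20.0%) and 1 in 2DG + phenformin (7.69%, against 21.8%). In these comparisons 0 were higher, against 8.33%, 4.09% and 4.84% of all expressed genes. LONP1, the matrix protease, was above control by 0.96 in 2DG, and differed from 2DG by −1.34, −1.21 and −1.26 when compound C, versipelostatin or phenformin was added. Of 15 expressed genes of the TCA cycle and pyruvate dehydrogenase, 0 were 2-fold higher in 2DG + compound C than in 2DG (against 8.33% of all expressed genes). In the same comparison 2 were lower (13.3%, against 25.4%), the lowest being PDHX at −1.74.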
